A study of Danio rerio with 6 samples.

Results

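The actin genes of the zebrafish were followed in whole larvae with and without a morpholino against GJB2. The set held 8 rows of the 53709 in the deposited table, which belong to 7 of its 37685 genes: actb1, actb2, acta1a, acta1b, acta2, actc1a and actc1b. Rows were taken by their gene symbol, together with any row of the same symbol that carries a numeric suffix, and each gene was examined by its rows and by their sum. Only actb1 had such a further row, actb1_1, and the other 6 genes had 1 row each. The set was chosen by its read counts, because the 2 rows of actb1 had moved in opposite directions in these libraries, so the values of actb1, of actb1_1 and of their sum are given as a description and carry no test. The 6 other genes were taken by name.

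Actin is the protein of the thin filaments of muscle and of the microfilaments that give cells their shape and let them move. Its monomers join into polar filaments, and partner proteins hold monomers in reserve, start, cap, sever or bundle the filaments. Vertebrates carry cytoplasmic beta actins, found in nearly all cells, and alpha actins of skeletal, cardiac and smooth muscle. The proteins are almost identical and the genes are alike in sequence, so a read can match more than 1 of them. Beta actin is also widely used as a reference for other genes.

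The control group held 3 libraries of wild-type AB larvae, and the morpholino group held 3 libraries of AB larvae that received, as 1-cell embryos, an antisense oligonucleotide against GJB2, a connexin gene known for its part in hearing. A morpholino binds an RNA and blocks its translation or splicing. All larvae were collected 72 hours after fertilization, and poly-A RNA of the whole animal was sequenced. Libraries held between 14582030 and 19743658 counts. The dose, the number of larvae pooled and whether replicate libraries were raised from different clutches are not given in the sources used here. A p-value therefore reflects how far these 6 libraries vary, and that variation may be technical. No larvae injected with a control oligonucleotide were analysed here.

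The targeted gene could not be used to check the labels. No row is named GJB2, and gjb8 was taken as the closest named candidate, without a comparison of sequences. The row gjb8 was at 0 counts in every library, and gjb8_1 had 7, 8 and 11 counts without the morpholino and 114, 14 and 16 with it. In whole larvae, fewer cells of a type and less RNA per cell cannot be told apart. Summed over all rows of each gene, markers of fast muscle came to between 63528 and 64202 CPM in the morpholino libraries and between 62247 and 66342 CPM in the controls. Markers of neurons came to between 1532 and 1787 against 1511 and 1659 CPM. CPM stands throughout for TMM-scaled counts per 1000000 counts of a library. Markers of the epidermis did not overlap, with 19676 to 23718 CPM in the morpholino libraries against 17778 to 18734 CPM in the controls. Of all single genes with rows summed, 27.8% did not overlap either. By the rows of the plain symbols alone the epidermal markers came to 11934 to 14380 against 7950 to 8566 CPM. That wider gap includes a shift of the keratin gene krt4 between its rows, given below. Of 8 epidermal markers tested, 5 rows were higher in the morpholino libraries (edgeR, adjusted p under 0.05), where 3.77% of all rows were. With rows summed, 3 of 10 genes were higher, where 2.88% of all genes were. The number of rows called was 3 or 4 with 1 library left out.

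Beta actin 1 shifted from one of its rows to the other. The row actb1, on chromosome 1 from 8649102 to 8652677 on the minus strand of GRCz11, held 26343, 35656 and 40559 counts in control libraries 1 to 3. In morpholino libraries 1 to 3 it held 15166, 16542 and 11440 counts. All 3 morpholino libraries lay below all 3 controls. The level was 2128 ± 295 CPM in the controls and 807 ± 77.2 CPM in the morpholino libraries (mean ± SD, n = 3 each), a log2 fold change of -1.40 ± 0.11 (SE), or 0.379-fold.

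The row actb1_1, for which the table gives no coordinates, moved the other way. Its counts were 13001, 13012 and 11323 in control libraries and 42905, 56059 and 37214 in morpholino libraries. Every morpholino library held more than any control. The level was 786 ± 113 CPM against 2547 ± 334 CPM, a log2 fold change of 1.70 ± 0.13 (SE), or 3.24-fold.

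Summed over both rows, actb1 held 39344, 48668 and 51882 counts in control libraries and 58071, 72601 and 48654 counts in morpholino libraries. The sum was 2723, 2934 and 3081 CPM in the controls against 3208, 3783 and 3066 CPM. The groups overlapped, since morpholino library 3 lay below control library 3. Its log2 fold change was 0.20 ± 0.09 (SE). It was 0.11 without morpholino library 2, the highest of the 6.

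**Figure D1:**
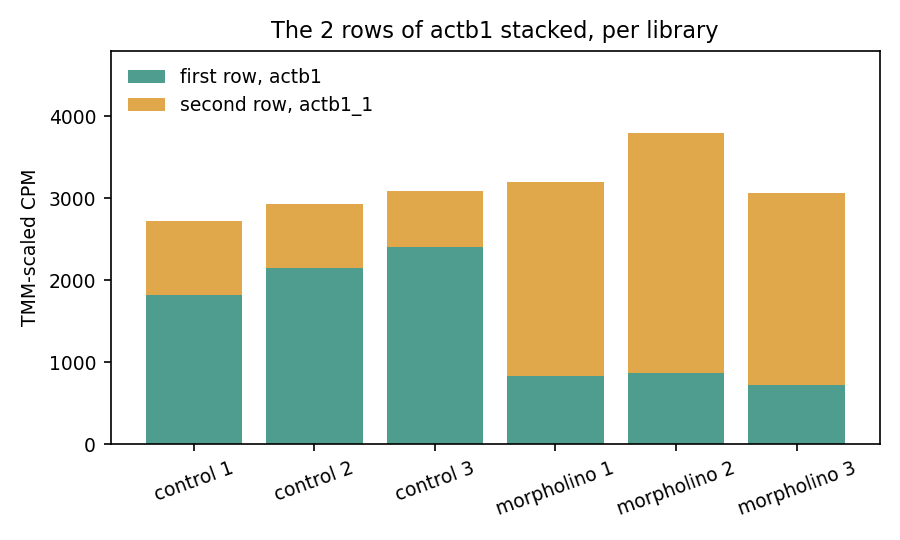
The level of actb1 in TMM-scaled CPM is stacked by row for each of the 6 libraries, with the row actb1 and the row actb1_1 in separate colours. The row actb1 makes up most of the bar in the 3 controls and the row actb1_1 in the 3 morpholino libraries, while the height of the whole bar runs from 2723 to 3783 CPM.

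The share of actb1 counts that fell in the row actb1 needs no scaling between libraries. It was 67.0%, 73.3% and 78.2% in the controls, with exact 95% binomial (Clopper-Pearson) intervals of 66.49 to 67.42, 72.87 to 73.66 and 77.82 to 78.53. In the morpholino libraries it was 26.1%, 22.8% and 23.5%, with intervals of 25.76 to 26.48, 22.48 to 23.09 and 23.14 to 23.89. The intervals cover counting error only, and the 3 controls differed from each other by more than that error. The mean share was 72.8 ± 5.62% against 24.1 ± 1.75% (SD, n = 3 each), a difference of -48.7 percentage points.

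Put as a ratio, actb1_1 held 0.494, 0.365 and 0.279 counts for each count of actb1 in control libraries, and 2.83, 3.39 and 3.25 in morpholino libraries. Both rows have the same length, 1730 bases, as implied by the deposited FPKM and counts, so the share taken from FPKM was the same in every library. The log2 ratio of the first row to the second changed by -3.09 ± 0.30 (SE).

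Among the genes that were split over rows, actb1 had the second highest counts after krt4, a keratin of the outer epidermis. Of the 10 other such genes with a mean of at least 10000 counts, 4 changed their split (limma, adjusted p under 0.05). Of all 2330 genes with enough counts in at least 2 rows to test, 17.0% did. Nearly all of those had fewer counts, and the shares were not matched for counts. The first row of krt4 gained, from 8.73% to 25.6% of the counts of the gene. The first rows of apoa1a and krt8 also gained, from 14.9% to 47.5% and from 59.9% to 83.5%. The first row of selenop, a selenium transport protein, lost, from 65.1% to 43.3%.

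The split was also examined in the genes that neighbour each actin gene within 500 kb, a window chosen after the values had been seen. Around actb1 the table places 37 genes, of which 20 have several rows and 12 had enough counts in at least 2 rows to test the split. The split changed in 11 of those 12 (limma, adjusted p under 0.05), against the 17.0% of all such genes. The 12 share a stretch of chromosome with actb1, which chose the set, so they are not 12 independent draws from all such genes. The first row lost share in 4 of the 12, against 8.71% of all such genes, and gained share in 7, against 8.33%. With 1 library left out, between 9 and 12 neighbours changed, of 12 or 13 tested.

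The neighbours that lost lay on either side of actb1 and those that gained lay further along the chromosome. The genes whose first row lost were ptcd1, slc29a4b, fbxl18 and fscn1b, with middles between -89.9 and 15.6 kb from the middle of actb1. Their first rows held between 42.5% and 76.4% of the gene in single control libraries and between 20% and 27.1% in single morpholino libraries. The morpholino values lay close to those of actb1 itself, 22.8% to 26.1%.

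For fscn1b, which encodes an actin-bundling fascin, the share of the first row was 64.6%, 70.6% and 65.0% in control libraries and 24.1%, 25.4% and 20.2% in morpholino libraries. For ptcd1, a mitochondrial RNA-binding protein, the mean was 66.4 ± 10.1% against 23.2 ± 1.79%. For slc29a4b, a nucleoside and monoamine transporter, it was 59.3 ± 8.59% against 23.5 ± 3.09%. The groups did not overlap in any of these genes. How often first-row shares do not overlap among all genes with a tested split is not given here.

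The 7 genes whose first row gained had middles between 190 and 479 kb from that of actb1. They were grin2ab, si:ch73-191k20.4, prkcba, cacng3a, si:ch211-14k19.8, ndufab1a and palb2. For ndufab1a, the mitochondrial acyl carrier protein, the share of the first row was 17.2%, 14.9% and 16.2% in control libraries and 75.4%, 76.0% and 74.8% in morpholino libraries. For prkcba, a protein kinase C, the mean was 40.0 ± 4.01% against 84.7 ± 3.52%. Leaving aside si:ch73-191k20.4, which went from 1.96% to 41.3%, their first rows held between 14.9% and 45.4% in control libraries and between 68.5% and 87.7% in morpholino libraries. Some of these shares rest on few counts. The first row of si:ch73-191k20.4 held 3, 3 and 0 counts in control libraries. The rows of cacng3a together held 45, 38 and 46 counts there and 39, 38 and 37 in morpholino libraries.

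The neighbour whose split did not pass the test was abcg2b, at 31.6 kb, with means of 34.0 ± 10.4% and 21.9 ± 9.46% (adjusted p = 0.302 by limma), and its groups overlapped. In a window of 250 kb the split changed in 5 of 6 neighbours tested, and in a window of 1000 kb in 16 of 17. A window of 2000 kb held the same 16 of 17, of which 4 lost and 12 gained.

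**Figure D2:**
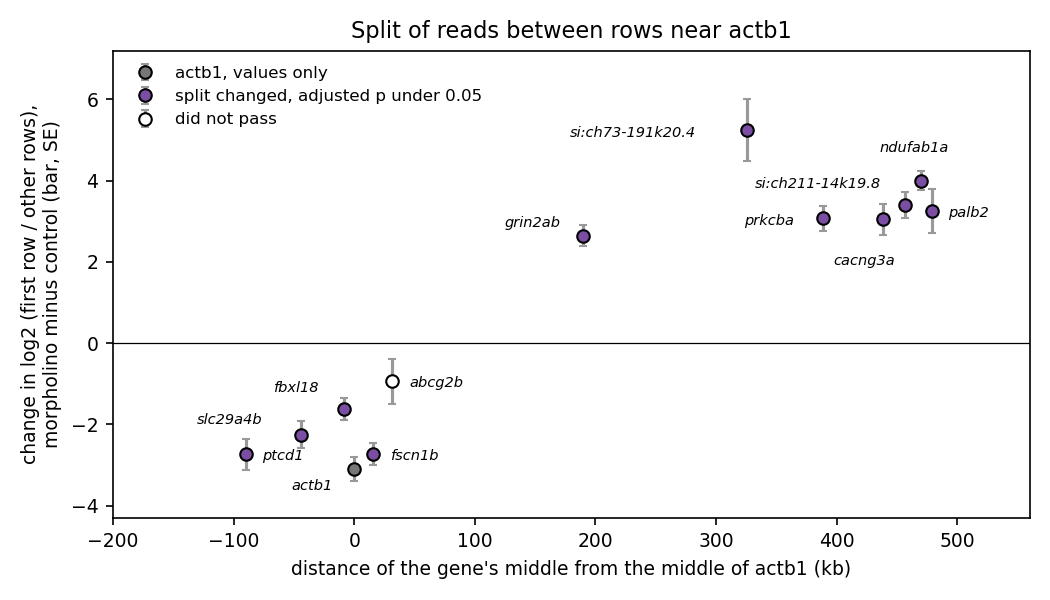
The change in the log2 ratio of a gene's first row to its other rows (morpholino minus control, bars are SE) is plotted against the distance of the gene from actb1 in kb. Genes near actb1 lie below 0, as actb1 does at -3.09, and genes at 190 kb or more lie above 0.

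**Figure D3:**
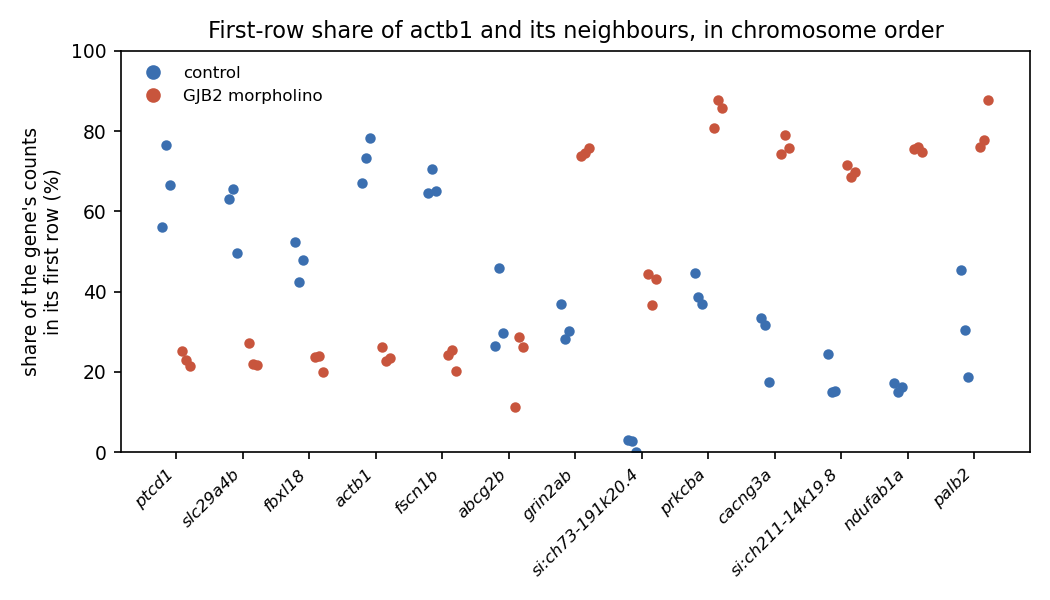
The share of a gene's counts in its first row, in percent, is shown for actb1 and its 12 tested neighbours, ordered by position, with 1 point per library. The control and morpholino points are apart in actb1 and in 11 of the 12 neighbours, and they overlap in abcg2b. How often such shares are apart among all genes with a tested split is not given.

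Taken by rows, 7 of the 25 neighbours of actb1 that were tested were higher in the morpholino libraries and 5 lower (edgeR, adjusted p under 0.05), where 3.77% of all rows were higher and 4.54% lower. With rows summed, 3 of 26 were higher and 1 lower, where 2.88% and 3.31% of all genes were. The first row of fscn1b alone fell by 1.28 ± 0.17 on the log2 scale (SE, adjusted p = 0.0018 by edgeR), from 157, 240 and 264 counts to 100, 120 and 80. Its sum had a log2 fold change of 0.24 (adjusted p = 0.292).

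The other actin genes had few neighbours with several rows. Within the same window, acta2 had 3 of 36, all of which could be tested and of which 1 changed its split. The genes actb2, acta1a, acta1b, actc1a and actc1b, with 18 to 37 neighbours each, had none.

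Among the rows whose pattern over the 6 libraries was closest to the row actb1 were lama5_1, si:ch211-14k19.8_1, lrpap1_1 and tfr1b_1. Their root mean square differences from it were 0.0881, 0.0990, 0.136 and 0.156 in centred log2 CPM, among 12209 rows with a mean of at least 10 CPM. Each of these 4 belongs to a gene with 2 rows, and the share of such rows among all those compared is not given here. The rows of actb1 chose the set, so the likeness is a description only. By the same measure the rows closest to actb1_1 were igfbp5a_1, si:ch211-226h7.3, prkcba, zgc:153932 and LOC108179107, with differences of 0.0837, 0.0881, 0.137, 0.157 and 0.169. Of these, igfbp5a_1 and prkcba belong to genes with 2 rows and the others to genes with 1. The genes si:ch211-14k19.8 and prkcba are among the neighbours of actb1 described above.

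Beta actin 2, the other cytoplasmic actin, did not pass the test. The row actb2, on chromosome 3 from 40526044 to 40531020 on the minus strand, held 41343, 51087 and 54233 counts in control libraries and 54510, 86336 and 50584 counts in morpholino libraries. Scaled, it was 2860, 3082 and 3224 CPM in the controls against 3007, 4516 and 3182 CPM. Morpholino library 2 lay above all others and the remaining 5 libraries overlapped. On the log2 scale the fold change was 0.22 ± 0.16 (SE, adjusted p = 0.466 by edgeR), and 0.02 without morpholino library 2 (adjusted p = 0.882).

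The balance between the beta actins was steady in the controls. The row actb2 held 51.2%, 51.2% and 51.1% of their joint counts in control libraries and 48.4%, 54.3% and 51.0% in morpholino libraries. Together they came to 5582, 6018 and 6308 CPM in the controls and to 6211, 8314 and 6243 CPM in the morpholino libraries, and the groups overlapped.

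All 8 actin rows passed the filter on low counts. Apart from actb1, 1 of the 6 genes was called lower and 0 higher (edgeR, adjusted p under 0.05), where 8.31% of all rows were called. At an unadjusted p under 0.05 the count was 4, all lower, where 12.1% of all rows were lower. DESeq2 called 4, also lower, where it called 4.64% of all rows lower. The CPM of the groups did not overlap in 3 of the 6, where 29.6% of all rows, and 27.8% of all genes with rows summed, did not. Those 3 were acta1a, acta1b and acta2.

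Apart from actb1, smooth muscle alpha actin was the only member that edgeR called lower. The row acta2, on chromosome 12 from 17100473 to 17115730 on the plus strand, held 4135, 4719 and 4545 counts in control libraries and 3337, 4288 and 3427 counts in morpholino libraries. Scaled, it was 286, 285 and 270 CPM in the controls against 184, 224 and 216 CPM. Every morpholino library lay below every control. It fell by 0.43 ± 0.08 on the log2 scale (SE, adjusted p = 0.0102 by edgeR), or to 0.742-fold. The call held in all 11 alternative settings, with adjusted p between 1.95e-05 and 0.0464.

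Markers of smooth muscle and mural cells, the contractile cells of vessel and gut walls, came, over all rows of their 17 genes, to between 493 and 541 CPM in the controls and between 465 and 470 CPM in the morpholino libraries. The gene acta2 is not among them. Of the 15 tested, 1 rose and 2 fell by edgeR, where 3.77% of all rows rose and 4.54% fell. With 1 library left out, 1 to 2 rows were called. The median log2 fold change was -0.16 where the median of all rows was 0.01. With rows summed, 1 of 17 rose and 1 fell, where 2.88% and 3.31% of all genes did. The marker smtna had 0 counts in its first row, and between 14 and 31 counts a library over its 2 rows. The part of these cells in the value of acta2 was not tested.

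Among those markers tagln, which encodes the actin-binding protein transgelin, fell by 0.40 ± 0.10 (SE, adjusted p = 0.0421 by edgeR). That call was lost when any library other than control library 3 was left out (adjusted p between 0.0538 and 0.144). In contrast cnn1a, a calponin of smooth muscle, rose by 0.99 ± 0.20 (adjusted p = 0.0152) from 3.16 ± 0.560 to 6.31 ± 0.827 CPM. It was not called without control library 3, morpholino library 1 or morpholino library 3 (0.0539 to 0.0667). The row of desmb, a desmin of intermediate filaments, fell by 0.75 ± 0.13 (adjusted p = 0.0065), while its 2 rows summed gave 0.19 (adjusted p = 0.691).

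The skeletal alpha actins did not pass the test, although their groups did not overlap. The row acta1a, on chromosome 1 from 53945959 to 53953532 on the plus strand, held 10065, 12360 and 11183 counts in control libraries and 9786, 12404 and 8210 counts in morpholino libraries. Scaled, it was 696, 746 and 665 CPM against 540, 649 and 516 CPM. The log2 fold change was -0.30 ± 0.09 (SE, adjusted p = 0.0704 by edgeR). It was called by DESeq2 (adjusted p = 0.0104), without a filter on low counts (0.0301) and without morpholino library 2, where it was -0.41 (0.00972).

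The row acta1b, on chromosome 13 from 24279058 to 24284442 on the plus strand, held 46539, 57294 and 52655 counts in control libraries and 47215, 59147 and 38068 counts in morpholino libraries. Scaled, it was 3220, 3457 and 3130 CPM against 2605, 3094 and 2395 CPM. Its log2 fold change was -0.28 ± 0.09 (SE, adjusted p = 0.104 by edgeR). It was called by DESeq2 (adjusted p = 0.0248) and without morpholino library 2, where it was -0.38 (0.0106).

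Of the actins named after the heart, actc1b is by far the most abundant row of the set. It lies on chromosome 17 from 117110 to 124665 on the minus strand and held 339431, 335257 and 410077 counts in the controls against 369747, 357909 and 299289. Scaled, it was 23482, 20226 and 24375 CPM against 20399, 18722 and 18828 CPM. The groups overlapped through control library 2 and morpholino library 1. The log2 fold change was -0.23 ± 0.08 (SE, adjusted p = 0.117 by edgeR), and it was called by DESeq2 (0.0351) and without a filter on low counts (0.0494).

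The paralog actc1a, on chromosome 20 from 29477147 to 29483509 on the minus strand, held 4897, 4464 and 4584 counts in control libraries and 4938, 7038 and 4292 counts in morpholino libraries. Scaled, it was 339, 269 and 272 CPM against 272, 368 and 270 CPM. The groups overlapped throughout. The log2 fold change was 0.05 ± 0.15 (SE, adjusted p = 0.889 by edgeR), and it changed sign without control library 2, control library 3 or morpholino library 2.

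**Figure D4:**
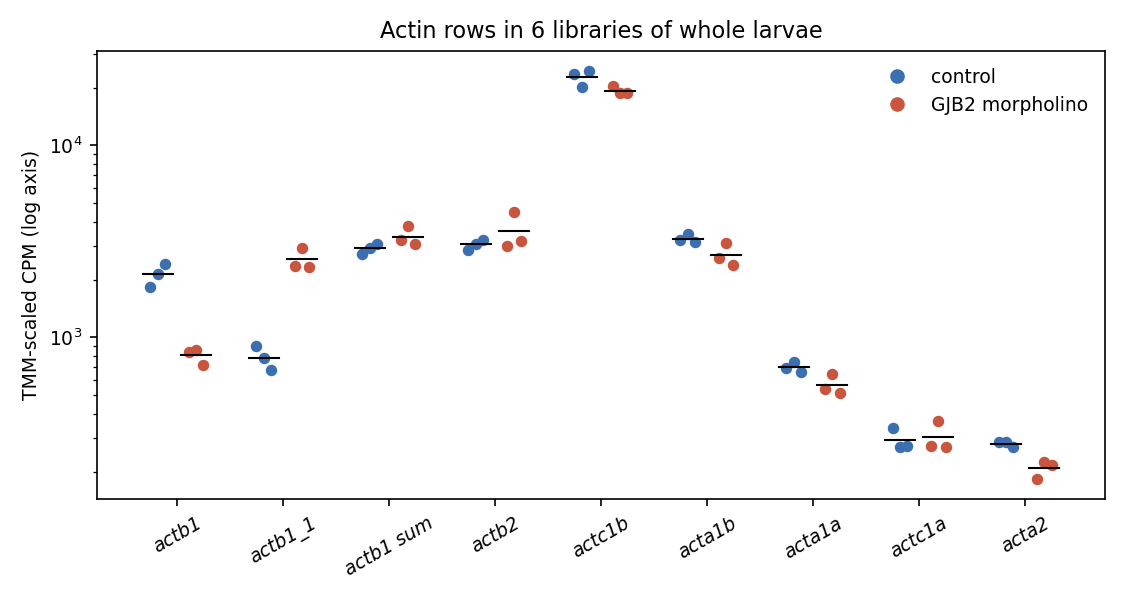
The level of each of the 8 actin rows is shown in TMM-scaled CPM on a log axis, with 1 point per library and the controls beside the morpholino libraries. The groups are apart in opposite directions in actb1 and actb1_1, and the morpholino points lie below the controls in acta1a, acta1b and acta2.

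**Figure D5:**
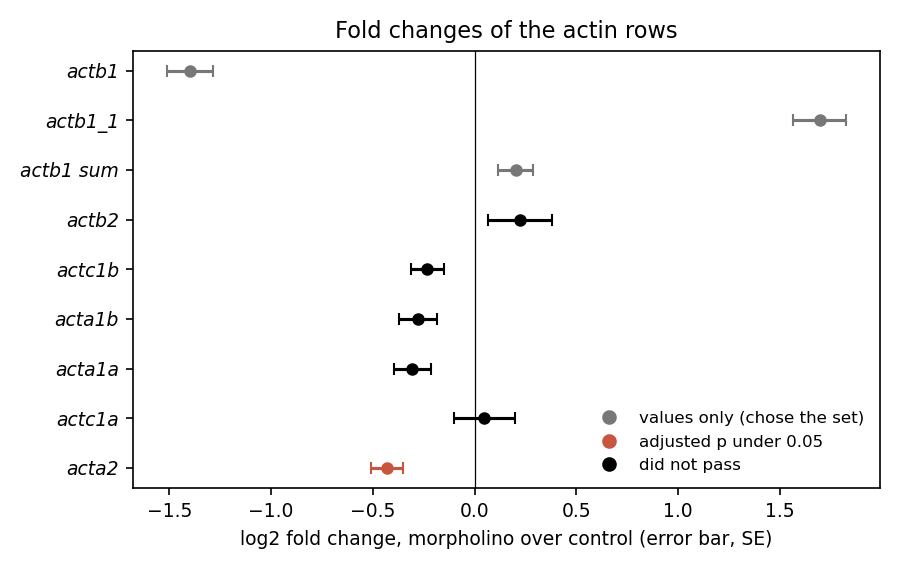
The log2 fold change of each actin row and of the sum of actb1 (morpholino over control, bars are SE) is shown on 1 axis. The values run from -1.40 for actb1 to 1.70 for actb1_1, with the sum of actb1 at 0.20 and the 5 muscle actins between -0.43 and 0.05.

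Muscle markers were read beside these values. Of 16 fast muscle markers tested, 0 rose and 2 fell by edgeR, where 3.77% of all rows rose and 4.54% fell. With rows summed, 2 of 17 fell, where 3.31% of all genes did. The troponin gene tnnt3a fell by 0.53 ± 0.06 (SE, adjusted p = 8.3e-04 by edgeR). The gene atp2a1, for the calcium pump of fast fibres, fell by 0.30 ± 0.07 (adjusted p = 0.0285). The median of the list was -0.02. DESeq2 called 4, and 1 or 2 were called with 1 library left out. The share of all rows that DESeq2 called in either direction is not given here. The call of tnnt3a held in all 11 alternative settings, and that of atp2a1 was lost without control library 1, control library 3, morpholino library 1 or morpholino library 3 (adjusted p between 0.0738 and 0.137).

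No slow muscle marker of 10 was called by edgeR, where 8.31% of all rows were. At an unadjusted p under 0.05 there was 1, and DESeq2 called 1. The nearest were smyhc2, a slow myosin, at -0.28 ± 0.08 (SE, adjusted p = 0.0601), and prdm1a, a regulator of slow fibres, at 0.23 ± 0.11 (0.259). No heart marker of 14 was called by edgeR, against the same 8.31%, with 1 at an unadjusted p under 0.05 and 0 by DESeq2. For both lists, the shares of all rows by these further measures, in either direction, are not given here. The transcription factor gene tbx5a had -0.58 ± 0.21 (adjusted p = 0.125) and the troponin row tnni4b.2, matched through a synonym, -0.18 ± 0.09 (0.236). Over all rows of each gene, the slow markers summed to between 1276 and 1378 CPM in the controls and between 1250 and 1373 in the morpholino libraries. The heart markers summed to between 1903 and 2081 against 1910 and 2184 CPM.

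Of 10 neuron markers, 0 were called by edgeR, where 8.31% of all rows were, or by DESeq2. At an unadjusted p under 0.05 there was 1, and the share of all rows at that level in either direction is not given here. The synaptic gene snap25a had a log2 fold change of 0.15 ± 0.06 (SE, adjusted p = 0.165 by edgeR) and elavl3, an RNA-binding protein of young neurons, 0.10 ± 0.06 (0.348).

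Among the epidermal markers krt17 rose by 0.88 ± 0.08 (SE, adjusted p = 2.87e-04 by edgeR), and krt91 rose by 0.57 ± 0.12 (0.0246). Both encode keratins. The first row of krt4 rose by 1.65 ± 0.08 (adjusted p = 5.33e-06), while the sum of its rows was 0.09 (0.523). The marker cyt1, another keratin, rose by 0.33 ± 0.08 (0.0312). The call of krt91 was lost without any 1 of the controls (adjusted p between 0.0653 and 0.0895), and that of cyt1 without control libraries 2 or 3 or morpholino libraries 1 or 2 (0.0666 to 0.122). The first rows of krt5 and cldni held at most 5 counts in a library. Over both rows krt5 held 6127, 18711 and 5368 counts in control libraries against 2986, 13183 and 3526, and cldni between 39 and 75 counts, and neither sum passed (adjusted p = 0.669 and 0.542). Beta actin is found in nearly all cells, and the part of the epidermis in its values was not tested.

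All actin rows together took 3.33%, 3.11% and 3.52% of the counts of a control library and 3.06%, 3.04% and 2.88% of a morpholino library. The beta actins made up 16.6% to 19.4% of the actin counts in the controls and 20.6% to 26.5% in the morpholino libraries. The row actc1b made up 65.2% to 69.9% and 59.7% to 67.5%. The beta share, which includes the actb1 rows that chose the set, did not overlap between the groups and the actc1b share did. For comparison, the CPM of the groups did not overlap in 27.8% of all genes with rows summed. The joint CPM of the beta actins, given above, overlapped.

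Levels of different genes were compared per length, as TPM deposited by the authors. In the controls actc1b was highest at 29221 ± 2882 TPM (SD, n = 3), followed by acta1b at 3524 ± 194. The sum of actb1 at 2735 ± 225 and actb2 at 2687 ± 214 overlapped. Below them stood acta1a at 718 ± 42.2, actc1a at 366 ± 41.4 and acta2 at 286 ± 5.89 TPM, and these did not overlap.

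In the morpholino libraries actc1b was again highest at 24540 ± 1896 TPM. The sum of actb1 at 3092 ± 241, actb2 at 3074 ± 583 and acta1b at 2858 ± 275 then overlapped. The lower ranks were acta1a at 571 ± 48.8, actc1a at 372 ± 53.3 and acta2 at 209 ± 16.9 TPM, without overlap. Taken by single rows, actb1 stood at 1999 ± 315 TPM and actb1_1 at 736 ± 91.4 in the controls, and at 745 ± 59.2 and 2347 ± 213 in the morpholino libraries.

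Other genes that the table describes as actins were chosen after the table had been seen. The gene acte1 also has 2 rows that went apart. The row acte1 held 1637, 1363 and 1475 counts in control libraries and 1001, 1354 and 1009 counts in morpholino libraries, and fell by 0.58 ± 0.14 (SE, adjusted p = 0.0489 by edgeR). The row acte1_1 held 1088, 1673 and 1321 counts against 2083, 2219 and 2051, and rose by 0.50 ± 0.11 (adjusted p = 0.0282).

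The sum of acte1 was 179 ± 11.7 CPM against 183 ± 11.5 CPM (SD, n = 3 each), a log2 fold change of 0.03 ± 0.07 (SE, adjusted p = 0.853 by edgeR). The change of its split, -1.08 ± 0.31 in log2 ratio, did not pass (adjusted p = 0.0598 by limma). The call of acte1 was lost without a filter on low counts (adjusted p = 0.0542) and without control library 3 or any of the morpholino libraries (0.0811 to 0.149), and that of acte1_1 was lost without control library 1, control library 3 or any of the morpholino libraries (0.068 to 0.103).

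The row zgc:101810 rose by 0.63 ± 0.09 (SE, adjusted p = 0.0022 by edgeR), from 64.4 ± 6.0 to 99.9 ± 7.86 CPM, and kept its call in all 11 alternative settings. The row actc1c, with 522, 1395 and 1392 counts in control libraries and 757, 764 and 801 counts in morpholino libraries, had a log2 fold change of -0.62 ± 0.38 (adjusted p = 0.418). Control library 1 stood below the other controls in this row, and without it the value was -0.92 and was called (adjusted p = 0.00164). The sum of actc2, a gene with 3 rows, had 0.37 ± 0.28 (adjusted p = 0.538).

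Genes of the actin pathway were then read by their role. Of 33 genes that bind monomers or turn filaments over, 1 rose and 1 fell by edgeR, where 3.77% of all rows rose and 4.54% fell. The median log2 fold change of the list was -0.07. The gene cfl1, for the filament-severing protein cofilin, fell by 0.29 ± 0.06 (SE, adjusted p = 0.0165), from 400 ± 11.6 to 327 ± 6.19 CPM. The gene gsnb, for a gelsolin that severs and caps filaments, rose by 0.37 ± 0.10 (adjusted p = 0.0495). The call of cfl1 was lost without control library 3, morpholino library 1 or morpholino library 3, with adjusted p between 0.0568 and 0.0676. The call of gsnb was lost without any library other than control library 3 (0.102 to 0.144).

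Of 43 genes that start or lengthen filaments, 0 were called by edgeR, where 8.31% of all rows were. At an unadjusted p under 0.05 there were 12 in either direction, and DESeq2 called 2. The shares of all rows by these measures, in either direction, are not given here, so neither count can be set against them. The nearest were arpc5a, a subunit of the Arp2/3 complex that starts branches, at -0.33 ± 0.09 (SE, adjusted p = 0.0501 by edgeR), and enah, which lengthens filaments, at -0.29 ± 0.08 (0.0534). The median of the list was -0.01.

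Single rows of crosslinkers and membrane anchors of actin moved only downward where they were called. Of 41 tested, 6 fell and 0 rose by edgeR, against 4.54% of all rows that fell, with a median log2 fold change of -0.05. The first row of fscn1b, described above, was 1 of the 6. The row of msna, moesin, which ties filaments to the membrane, fell by 0.50 ± 0.09 (SE, adjusted p = 0.00825), and the sum of its 2 rows was -0.28 (0.0809). The genes vclb, vinculin, and tln1, talin, which link actin to cell adhesions, fell by 0.49 ± 0.09 (0.0127) and 0.28 ± 0.06 (0.0228).

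With rows summed, 3 of these 41 genes fell and 0 rose, where 3.31% of all genes fell and 2.88% rose. The sums of fscn1b, msna and tln2a, whose first rows were called, did not pass. They were at 0.24, -0.28 and -0.18 (adjusted p = 0.292, 0.0809 and 0.258 by edgeR). The number of rows called in the list was between 3 and 5 with 1 library left out. The call of tln1 was lost without control library 1, control library 3, morpholino library 1 or morpholino library 3, with adjusted p between 0.0542 and 0.0925. The call of vclb was lost without morpholino library 1 (0.0546).

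Of 17 genes that fold actin or process its ends, 2 fell and 0 rose by edgeR, where 4.54% of all rows fell and 3.77% rose. The median of the list was -0.16. The gene cct2, a subunit of the chaperonin that folds actin, fell by 0.27 ± 0.06 (SE, adjusted p = 0.0314), from 225 ± 7.10 to 187 ± 9.51 CPM. The gene setd3, the methyltransferase that modifies a histidine of actin, fell by 0.37 ± 0.09 (adjusted p = 0.0349). With 1 library left out, 0 or 1 row of the list was called. The call of cct2 held only without morpholino library 3 and that of setd3 only without control library 1 (other adjusted p between 0.0592 and 0.131). With rows summed, 3 of 19 genes fell, where 3.31% of all genes did. The third was pfdn5, a subunit of the prefoldin chaperone that hands actin to the chaperonin, named after its values were seen. Its first row held 0 counts, and its 4 rows together held 431, 471 and 521 counts in control libraries against 238, 245 and 215. It fell by 1.18 ± 0.09 (adjusted p = 5.76e-05 by edgeR), and the call held with each library left out (2.51e-04 to 6.4e-04).

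Of 7 genes listed with the actin-related proteins, 0 were called by edgeR, where 8.31% of all rows were, or by DESeq2. The list also holds arpin, which is not itself an actin-related protein. At an unadjusted p under 0.05 the count was also 0. The nearest, arpin, an inhibitor of the Arp2/3 complex, had -0.47 ± 0.24 (SE, adjusted p = 0.287 by edgeR), and actr1b, of the dynactin complex, had -0.17 ± 0.09 (0.307).

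Factors of the MRTF family sense free actin monomers and, with their partner, the transcription factor SRF, switch on many actin genes. Of 36 such factors and known targets, 2 rose and 2 fell by edgeR, where 3.77% of all rows rose and 4.54% fell. The median was -0.09, and 1 to 3 were called with 1 library left out. Those called with all libraries were cnn1a, tagln and vclb, given above, and the first row of tagln2, a transgelin. That row of tagln2 rose by 1.85 ± 0.28 (SE, adjusted p = 0.0127 by edgeR). The sum of the 2 rows of tagln2 was -0.16 (adjusted p = 0.429).

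Of 46 thin filament partners in muscle, such as the tropomyosins and troponins, 1 fell and 0 rose by edgeR. Of all rows, 4.54% fell and 3.77% rose. The median of the list was -0.05. The gene that fell was tnnt3a, which also stands among the fast muscle markers.

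Beta actin was set beside 21 other genes in common use as references. Of these, 2 rose and 0 fell by edgeR, where 3.77% of all rows rose and 4.54% fell. Their median was -0.01. Without control library 3 or morpholino library 1, 1 was called. The gene gapdh, for a glycolytic enzyme, rose by 0.29 ± 0.07 (SE, adjusted p = 0.0279), from 2823 ± 156 to 3456 ± 155 CPM. Its call was lost without control library 2, control library 3 or morpholino library 1 (adjusted p between 0.088 and 0.127). The gene b2m, for beta-2 microglobulin, rose by 0.99 ± 0.16 (adjusted p = 0.0046), from 3.91 ± 0.209 to 7.80 ± 0.559 CPM. With rows summed, 2 of 22 rose and 1 fell, where 2.88% and 3.31% of all genes did. The gene that fell was ubb, a ubiquitin gene, named after its values were seen. Its sum fell by 0.33 (adjusted p = 0.00833 by edgeR), while its first row was at -0.08 (0.565). The values of that sum with 1 library left out are not given here.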

How the data were processed

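The authors deposited 1 table with read counts, FPKM and TPM of 6 libraries. The file headers name the deposited counts as read counts. Their values were whole numbers and were taken as not normalized. The deposited FPKM values are scaled by length and library. The authors' TPM values sum to the same total in each library. Per the submitters' processing notes, HISAT2, StringTie 1.3.1, RSEM and GRCz11 were used, with no role given. How reads that match several rows were shared out, and the strand setting, are not given in the sources used here. Values of near-identical actins and overlapping or antisense genes are therefore uncertain. A numeric suffix on the symbol of another row marks 16024 rows. That they are further copies of that gene is read from the names alone.

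Tests on counts used edgeR 4.0.16 (R 4.3.3): filterByExpr (min.count 10, min.total.count 15) kept 24652 rows or 22247 genes with rows summed, TMM scaling, robust quasi-likelihood tests, Benjamini-Hochberg adjustment over the whole table, call at 0.05. The split was tested with limma 3.58.1 on log2((first row + 0.5)/(other rows + 0.5)). Fold changes are morpholino over control, with SE. Scripts were tested on simulated data. The 14 gene lists were matched by symbol or RefSeq synonym (GRCz12tu, names only) for 343 of 353 entries.

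Named were all member rows, up to 4 called genes of a list (up to 2 where none passed), and the 5 rows most like each actb1 row, of which 1 is not reported here. Neighbours, other actins and some single genes, pfdn5 and ubb among them, were added later. Members and lists were chosen with earlier results of these data known. Alternatives were DESeq2 1.42.0, its size factors in edgeR, no filter, a min.count of 50, a split offset of 5, a replicate block and each library left out.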

Additional observations from a re-analysis of the deposited data

How the results depend on the processing

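The rows of actb1 and actb1_1 and the first-row share kept their direction in every setting tried. With 1 library left out, actb1 lay between -1.50 and -1.30, actb1_1 between 1.59 and 1.80, their sum between 0.106 and 0.264 in log2 fold change, and the difference in share between -51.6 and -46.0 points. The sign of actc1a was negative without control library 2 (-0.01 by row, -0.0117 summed), control library 3 (-0.0028, -0.00195) or morpholino library 2 (-0.11, -0.112), and the highest value was 0.16 (0.162 summed) without control library 1. The sign of actc2_1 turned without control library 1 (-0.13) or morpholino library 3 (-0.77), and its highest value was 1.28 without control library 3.

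The 2049 rows called became 1032 to 1553 with 1 library left out, the 1378 genes with rows summed became 579 to 1070, and the 397 genes with a changed split became 136 to 281. Other settings gave 1821 to 2260 rows and 1218 to 1596 genes.

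The main fits did not pair libraries by replicate number. Correlations between deviations of the same number were -0.014, 0.034 and 0.006, and those of unlike numbers ran from -0.060 to 0.058. Such values, from 3 libraries per group, cannot show whether the numbers mark shared clutches or batches. With a replicate block 1821 rows and 1362 genes were called, 127 genes changed their split, and 9 of 12 neighbours of actb1 did. The block ended the calls of gsnb, tagln, acte1, gapdh and atp2a1 and made that of acta1a (adjusted p = 0.0437 by edgeR). The cause of these differences was not tested. Only 3 libraries per group limit the precision, since counts of the actins are high.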
